A study of Equus caballus with 18 samples.

Results

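The comparison set the 5 muscles of subgroup B1 against the 2 extensors of subgroup B3, which are 7 of the 18 skeletal muscles sequenced from 1 male Jeju horse, a pony breed of Jeju Island in Korea. B1 holds the Semitendinosus, the Gluteus superficialis, the vertebral and middle parts of the Biceps femoris, and the muscle labelled M. Pectoralis major, which the study also calls pectoralis ascendens. B3 holds the M.extensor carpi radialis and the Extensor digitorum longus. Every muscle gave 1 total RNA library and all came from the same animal, for which no treatment is named, so the muscles of a subgroup stand in for replicates, and their spread holds differences between muscles and technical error, which cannot be told apart. The members were chosen by the subgroups of the study, which were made by k-means clustering of the counts of these same libraries. Differences between B1 and B3 therefore describe how far the subgroups lie apart. Adjusted p-values only sort genes here and are no test of groups fixed beforehand.

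Extensors of the lower limb lie on the forearm or the leg and pull through long tendons on the carpus or the digit. The extensor carpi radialis extends the carpus of the forelimb, and the extensor digitorum longus extends the digit and flexes the hock of the hindlimb. The muscles of B1 are large muscles close to the trunk. Of these, the semitendinosus, the gluteus superficialis and both parts of the biceps femoris move the hip and the hindlimb, whereas the pectoral muscle joins the chest to the forelimb. Horse muscle mixes slow oxidative fibers with fast fibers, and the mix differs between muscles and sites. In whole muscle, fewer cells of a type and less RNA per cell cannot be told apart.

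Genes are listed in the table by Ensembl identifier and the sources used here pair no identifier with a symbol. Genes are therefore described by identifier, 2 for each direction, and the other genes by their counts and ranges. The labelled tissue was for the same reason not checked against marker genes of muscle, fat, tendon or other cells, and what share of any difference comes from such cells was not tested. The 7 libraries held between 36379120 and 50508515 counts on genes. The largest total belonged to the M. Pectoralis major and the others lay between 36379120 and 39725356. The most abundant gene of a library took 24.6% to 39.1% of its counts. TMM factors, which scale a library for such differences in composition, ranged from 0.844 in the extensor carpi radialis to 1.41 in the gluteus superficialis.

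The first question was how far the 2 extensors lie from B1 and from each other. Among the 3996 genes with a mean of at least 10 CPM (the count of a gene relative to the TMM-scaled total of its library) over the 7 libraries, 79 differed more than 2-fold between the extensor carpi radialis and the extensor digitorum longus. The 10 pairs of B1 muscles differed in 24 to 366 genes, with a median of 109.5. The 10 pairs of 1 B1 and 1 B3 muscle differed in 153 to 384 genes, with a median of 196.5. The pair of extensors thus lay within the range of the B1 pairs and below every pair of a B1 muscle with an extensor. These ranges of pairs overlapped, because the vertebral part of the biceps femoris differed from the middle part in 281 genes and from the pectoral muscle in 366.

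The Euclidean distance of log2 CPM was also taken over all 13755 genes tested. It was 73.2 between the extensors, 63.5 to 92.7 between B1 muscles (median 70.7), and 82.1 to 98.4 between a B1 and a B3 muscle (median 87.65). For each of the 2 extensors, the nearest of the other 17 muscles of the series was the other extensor. This nearness was part of what placed them in 1 subgroup and is no finding. The smallest distance from an extensor to B1 was that of the extensor digitorum longus to the middle part of the biceps femoris, and the largest was 98.4, from the same extensor to the vertebral part. The forelimb and the hindlimb extensor were nearer to each other than either was to any B1 muscle, including those of its own limb.

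**Figure D1:**
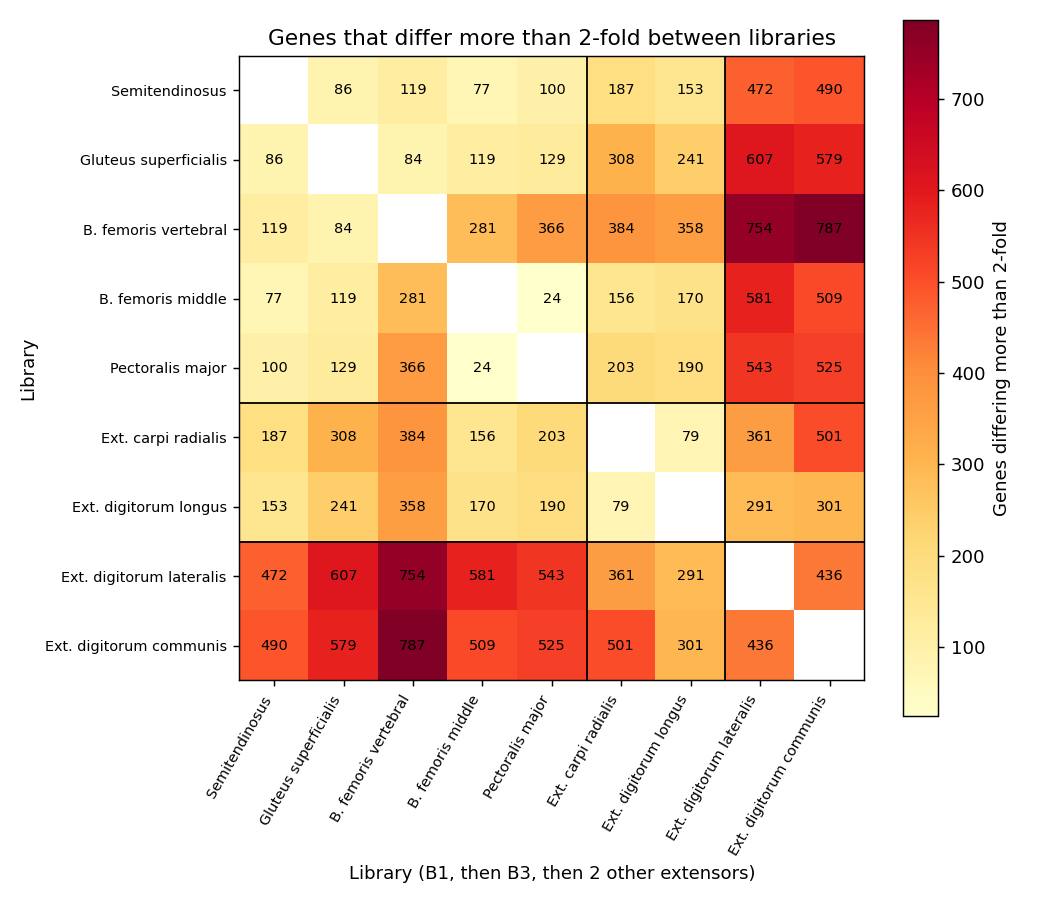
Number of genes that differ more than 2-fold between 2 libraries, among 3996 genes with a mean of at least 10 CPM, for the B1 muscles, the 2 B3 extensors and 2 other extensors (black lines divide these sets, and color and number give the count of genes). The 2 B3 extensors differ in 79 genes. The 2 other extensors differ from every B1 muscle in at least 472 genes. From the B3 extensors, the extensor digitorum communis differs in 301 and 501 genes and the extensor digitorum lateralis in 291 and 361.

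The second question was whether both extensors left the range of the 5 B1 muscles in the same way. Both lay above all B1 muscles for 1758 genes, 12.8% of the 13755 tested, and below all of them for 1681 genes, 12.2%, which makes 25% of the genes tested on the same side. Both extensors were held against the same 5 libraries and were clustered together on these counts, so these numbers describe their places and are no independent measure of agreement. The 2 extensors lay on opposite sides of the B1 range for 295 genes, or 2.14%, with the extensor carpi radialis the higher one for 121 of these and the extensor digitorum longus for 174. The extensor carpi radialis alone left the range for 2567 genes (18.7%), the extensor digitorum longus alone for 2197 (16%), and neither did for 5257 (38.2%). The number of genes on opposite sides was 182 with plain library totals in place of TMM and 301 with the size factors of DESeq2. The balance between genes above and below depended on the scaling too. With plain library totals in place of TMM, both extensors lay above B1 for 432 genes and below for 2105, so that 17.0% of the genes outside on 1 side were above, against 51.1% with TMM and 52.7% with the size factors of DESeq2.

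The gap between the extensors differed between these classes, as it must where the classes are made from their places. Its median on the log2 scale was 0.16 for genes with both above, 0.18 for genes with both below, 0.17 where neither left the range, and 0.85 for genes on opposite sides. Of the 295 genes on opposite sides, 130 differed more than 2-fold between the extensors. These genes took 2.7% of the counts of the extensor carpi radialis and 0.525% of those of the extensor digitorum longus.

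The most abundant RNAs were looked at separately, since they carry most of the counts. Among the 20 genes most abundant in the 7 libraries, 0 had both extensors above B1 and 1 had both below. For 12 of them neither extensor left the range of B1, for 4 only the extensor carpi radialis did, and for 2 only the extensor digitorum longus. The remaining gene lay on opposite sides with a gap of 3.62 on the log2 scale, and it took 2.39% of the counts of the extensor carpi radialis and 0.22% of those of the extensor digitorum longus. Over all genes tested, those for which the extensor carpi radialis alone left the B1 range took 34.1% of its counts and 31.2% of the counts of the extensor digitorum longus. The 4 such genes among the 20 most abundant held 28.6% of the counts of the extensor carpi radialis.

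**Figure D2:**
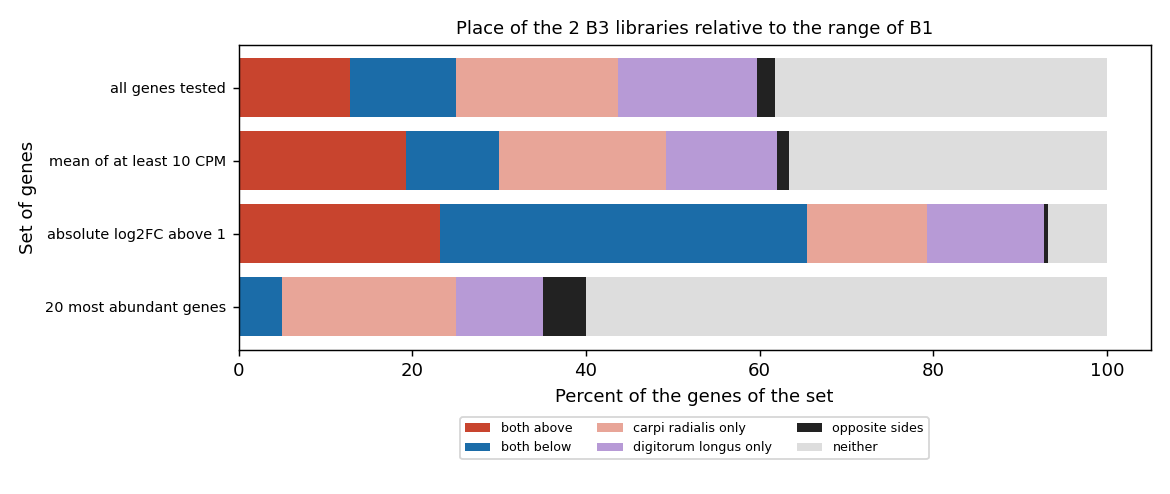
Place of the 2 B3 extensors relative to the range of the 5 B1 muscles, as percent of the genes of 4 sets of genes (all genes tested, mean of at least 10 CPM, absolute log2FC above 1, and the 20 most abundant). Both extensors lay above B1 for 12.8% and below for 12.2% of all genes tested, and the opposite sides class held 2.14%.

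The third question was which genes separate the subgroups most clearly. In edgeR's quasi-likelihood fit of the 9 muscles of group B, which include the 2 muscles of B2, 24 of 13755 genes (0.174%) had a log2FC beyond 1 in either direction together with a Benjamini-Hochberg adjusted p under 0.05. The limit on the log2FC is that of the study for B1 vs. B3, and that on the adjusted p is the one it states for other pairs of subgroups. Of these DEGs, 9 were higher in B1 (0.0654% of the genes tested) and 15 were higher in B3 (0.109%). These percentages are the background of the same contrast, and nothing is read from them because the subgroups were made from these counts. A log2FC above 1 in size was found for 881 genes, and the median log2FC of all genes tested was 0.03. The DEG nearest to the limit had a log2FC of 4.64, and the first gene beyond it one of -3.07. The number of DEGs rested on the choice of tool and on single libraries. It was 174 with the Wald test of DESeq2, the tool of the study, and 91 in a fit of the 7 libraries of B1 and B3 alone, and both sets held all 24 genes. Other fits held fewer of them, with 18 of the 24 in the robust fit, 14 in the fit of all 18 libraries and 7 without the semitendinosus. The balance turned round with DESeq2, with 109 DEGs higher in B1 and 65 higher in B3. It also did so in edgeR with no filter on low counts, with 235 and 159. Neither subgroup is therefore described as having more DEGs. The study's own DESeq2 list for B1 vs. B3 was longer than the 174 found here and also held more genes higher in B1. Without the extensor digitorum longus edgeR called 3 genes, and without the extensor carpi radialis 9, all of them higher in B3.

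Of the 881 genes with an absolute log2FC above 1, both extensors lay above B1 for 204 and below B1 for 373. Only 1 of the extensors left the B1 range for 121 genes (the extensor carpi radialis) and for 119 genes (the extensor digitorum longus), they lay on opposite sides for 4, and neither left the range for 60. Where only 1 extensor did, the median gap between them was 1.39 and 1.31 on the log2 scale.

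All 24 DEGs had both extensors outside the range of B1 on the same side, against 25% of all genes tested. This was largely fixed by the choice of the genes, since with 2 libraries a gene is rarely called unless both lie apart from B1, and nothing is read from it. Neither extensor was the farther one throughout. The extensor carpi radialis lay farther from the B1 mean for 5 of the 15 genes higher in B3 and for 5 of the 9 higher in B1. The 5 of the 9 include ENSECAG00000016631, where 1 and 6 counts are too few to rank the extensors. For the 15 genes higher in B3, the extensor carpi radialis lay 0.96 to 3.59 above the B1 mean on the log2 CPM scale (median 2.19), and the extensor digitorum longus 1.30 to 8.33 (median 2.76). For the 9 genes higher in B1, the extensor carpi radialis lay between -6.68 and -1.43 from the B1 mean (median -3.02) and the extensor digitorum longus between -5.47 and -1.34 (median -2.27). The lowest of these values rest on 1 and 5 counts and depend on the prior of 0.5 counts. The gap between the extensors was under 1, or 2-fold, for 12 of the 15 and for 6 of the 9 genes. It was smaller than the range of the 5 B1 muscles for 11 of the 15 and 6 of the 9. The 15 genes had means of 1.37 to 141 CPM in B3, and the 9 genes had means of 1.497 to 42.0 CPM in B1, so that most of them are low to moderate in level.

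**Figure D3:**
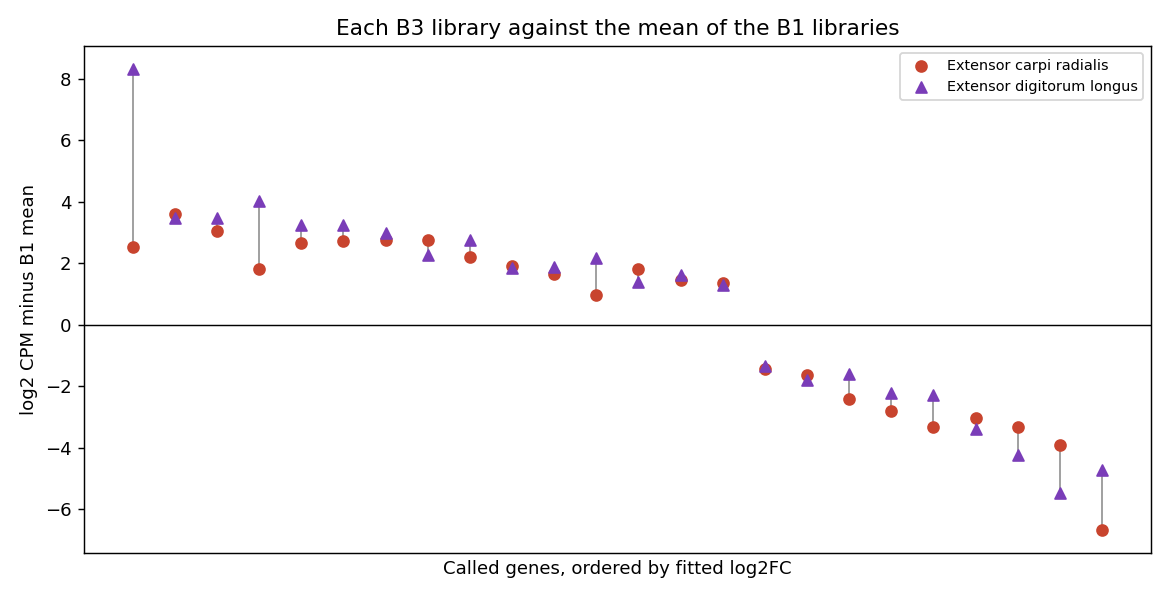
Difference of each B3 extensor from the mean of the 5 B1 muscles, in log2 CPM, for the 24 DEGs ordered by fitted log2FC (circles, extensor carpi radialis, and triangles, extensor digitorum longus, joined by a line for each gene). Both extensors lie on the same side of 0 for every gene shown, and the widest gap is 5.80.

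ENSECAG00000016631 had the largest log2FC of the DEGs higher in B1. Its level was 5.10 CPM in the semitendinosus, 4.13 in the gluteus superficialis, 3.50 in the vertebral and 4.64 in the middle part of the biceps femoris, and 5.82 in the pectoral muscle. It was 0.0298 CPM in the extensor carpi radialis, from 1 count, and 0.159 in the extensor digitorum longus, from 6 counts. Every B1 muscle was far above both extensors, and the extensors themselves were too low to be ranked. The mean was 4.64 ± 0.889 CPM over the 5 muscles of B1 (SD), against 0.0945 ± 0.0915 CPM over the 2 extensors. The fitted log2FC was 5.52 (standard error 0.87), and it rests on very few reads in B3. How far it depends on the prior count of the fit was not tested. The log2FC also moved with single extensors. It was 7.13 without the extensor digitorum longus and 4.83 without the extensor carpi radialis. The gene was a DEG in 4 of the 9 leave-one-out fits. It lost its call in the robust fit and in the fit of all 18 libraries, with a log2FC of 5.52 in both. Outside these subgroups the gene was not confined to B1, with 6.55 CPM in the supraspinatus and 5.74 in the long head of the triceps brachii. Low levels were not confined to the B3 extensors either, with 0.0849 CPM in the trapezius, 0.157 in the omohyoideus, 0.166 in the rhomboideus and 0.185 in the longissimus. The extensor digitorum communis had 1.42 CPM and the extensor digitorum lateralis 1.87, both above the B3 extensors.

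ENSECAG00000007161 was the other of these. It was at 9.03 CPM in the semitendinosus, 7.75 in the gluteus superficialis, 7.28 in the vertebral and 3.002 in the middle part of the biceps femoris, and 7.23 in the pectoral muscle. The extensors had 0.418 CPM (extensor carpi radialis, 14 counts) and 0.133 CPM (extensor digitorum longus, 5 counts). The middle part of the biceps femoris was the lowest B1 muscle, apart from the others on the log2 scale, and still lay above both extensors. The log2FC was 4.64 (standard error 0.81), from means of 6.86 ± 2.27 CPM (SD, n = 5) and 0.275 ± 0.201 CPM (n = 2). Of the 24 DEGs this gene was the last to pass. It was a DEG in 3 of the 9 leave-one-out fits. It lost its call in the robust fit and in the fit of all 18 libraries, with a log2FC of 4.64 and 4.65. The log2FC was 5.66 without the extensor carpi radialis and 4.02 without the extensor digitorum longus. The other extensors of the digit were low as well, with 0.101 CPM in the extensor digitorum communis (4 counts) and 0.08 in the extensor digitorum lateralis (3 counts), whereas every other muscle of the series had at least 1.30 CPM.

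ENSECAG00000013267 had the largest log2FC of the DEGs higher in B3, and the 2 extensors disagreed on its size. It was at 4.12 CPM in the extensor carpi radialis and at 231 CPM in the extensor digitorum longus. The B1 muscles had 0.664 CPM in the semitendinosus, 0.509 in the gluteus superficialis, 1.14 in the vertebral and 0.600 in the middle part of the biceps femoris, and 0.762 in the pectoral muscle. Both extensors were above all of B1, but by 2.52 and by 8.33 on the log2 scale, a gap of 5.80. The fitted log2FC of -7.33 (standard error 1.05) rested on the extensor digitorum longus. Without this library it was -2.49 and the gene was no longer a DEG. The call was also lost without the semitendinosus, without the gluteus superficialis and in the robust fit. In these fits the log2FC stayed about as large, at -7.29, -7.21 and -7.33. Muscles outside the comparison also had more than the extensor carpi radialis, with 33.7 CPM in the omohyoideus and 23.9 in the rhomboideus.

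ENSECAG00000006487 showed the closest agreement of these 4 genes. It was at 6.14 CPM in the extensor carpi radialis and at 5.65 CPM in the extensor digitorum longus. The B1 muscles had 0.319 CPM in the semitendinosus, 0.218 in the gluteus superficialis, 0.696 in the vertebral and 0.632 in the middle part of the biceps femoris, and 0.993 in the pectoral muscle. The extensors were alike and lay above every B1 muscle, with a log2FC of -3.38 (standard error 0.39) from means of 0.571 ± 0.310 CPM (SD, n = 5) and 5.90 ± 0.348 CPM (n = 2). Of the 9 leave-one-out fits, only the one without the extensor digitorum longus lost the call, with a log2FC of -3.44. In the other 16 muscles of the series it did not exceed 1.499 CPM, reached in the caudal part of the biceps femoris. It was at 0.278 CPM in the extensor digitorum communis and at 0.187 CPM in the extensor digitorum lateralis, so the levels of the B3 extensors were not those of the other extensors of the digit.

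**Figure D4:**
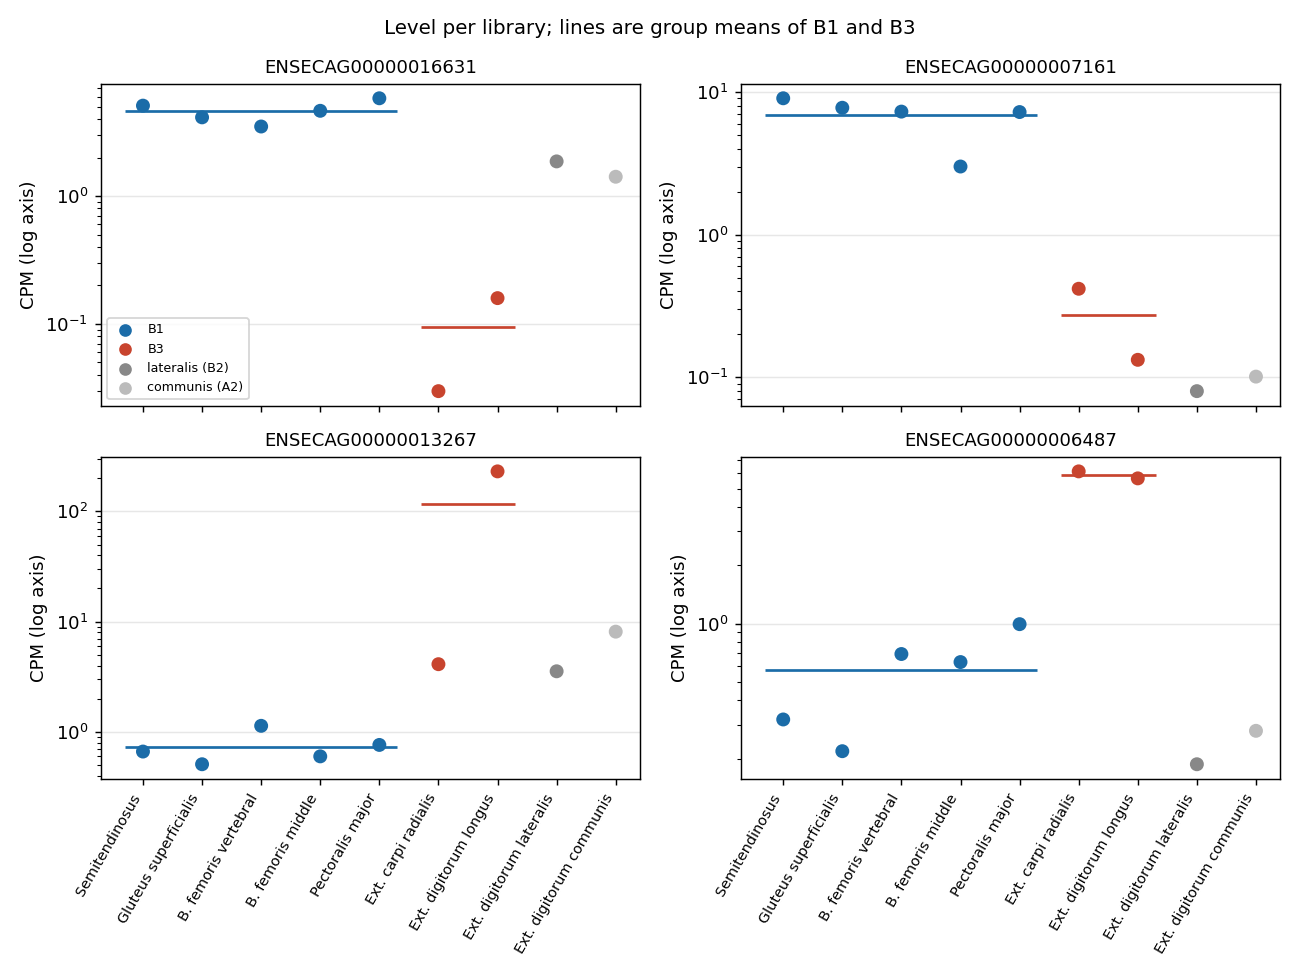
CPM on a log axis of 4 DEGs in each B1 muscle (blue), each B3 extensor (red) and 2 other extensors of the digit (grey), with lines at the means of B1 and B3. ENSECAG00000013267 is at 231 CPM in the extensor digitorum longus and 4.12 CPM in the extensor carpi radialis, whereas ENSECAG00000006487 is at 5.65 and 6.14 CPM.

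The extensor digitorum communis of the forelimb and the extensor digitorum lateralis of the hindlimb extend the digit too, but the study placed them in other subgroups (A2 and B2). Both were set beside the DEGs. The extensor digitorum communis lay beyond the B1 range on the side of B3 for 12 of the 15 genes higher in B3 and for 7 of the 9 genes higher in B1, and it lay on the other side for 0. The extensor digitorum lateralis did so for 11 of the 15, with 2 on the other side, and for 8 of the 9. Over all genes tested, the extensor digitorum communis lay above B1 for 28.1% and below for 26.9%, and the extensor digitorum lateralis for 28.4% and 29.3%. A neck muscle that is no extensor, the omohyoideus of B2, lay on the side of B3 for 12 of the 15 genes, with 1 on the other side, and for 7 of the 9. Over all genes tested it lay above B1 for 20.7% and below for 21.2%. No difference between these 3 muscles was tested. The DEGs were chosen because B1 and B3 lie apart in these same counts. The shares over all genes tested are therefore no like background, and nothing is read from the counts of DEGs. The extensor digitorum lateralis and the omohyoideus belong to the same fit of group B, so that their values helped to set its spread.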

How the data were processed

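The authors removed ribosomal RNA, sequenced TruSeq libraries as paired reads, trimmed them with NGSQCToolkit and aligned them with STAR 2.5.2b in 2 passes to EquCab2. The deposited values are raw counts per Ensembl gene, without normalization, for 25239 genes in 18 muscles. No reads were reprocessed. Subgroups were taken from the study by muscle name, and B1 and B3 were compared with edgeR 4.0.16 in R 4.3.3 (filterByExpr, TMM, glmQLFit and glmQLFTest over the 9 muscles of group B, Benjamini-Hochberg adjustment). Levels are CPM on TMM library sizes of all 18 libraries, and distances used log2 CPM with a prior of 0.5 counts. Standard errors were derived from the log2FC and the F statistic. Alternatives were DESeq2 1.42.0 and its size factors, other count filters, a robust fit, fits of 7 or 18 libraries, and leaving out each muscle of group B.

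The members, lists and tests were chosen with earlier results of these data known. The genes given by identifier are the 2 per direction with the largest absolute log2FC among DEGs whose subgroups do not overlap with no library of the higher subgroup under 10 counts. The lists of fiber type, metabolism, adipocyte, tendon, immune, nerve and limb position genes that were planned are not reported here, because symbols could not be matched to identifiers (0 matched). A reference table of RefSeq genes was used only for this attempt. On simulated counts with 200 of 13755 genes changed by a log2FC of 2, edgeR recovered 161 with 6 false calls and DESeq2 165 with 12. With no gene changed they made 0 and 3 calls. The simulated counts were independent draws for groups fixed beforehand, with the spread fitted to group B taken as true. They therefore do not give the error rates of B1 against B3, whose subgroups were made from the counts. No intervals are given, and the standard errors hold the spread between the muscles of a subgroup together with technical error.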

Additional observations from a re-analysis of the deposited data

Results flagged for a closer look

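Among the 5 B1 libraries, the total of the M. Pectoralis major, 50508515 counts, stood apart from the other totals, with a gap to the next one that was 0.82 of the whole range of the group. Without this library the number of DEGs was 17 in edgeR, 3 higher in B1 and 14 higher in B3, and 16 of them were among the 24. About 1 in 20 such groups is marked by chance. On the log2 CPM scale, ENSECAG00000007161 was marked in the same way, as the middle part of the biceps femoris (3.002 CPM) lay below the other B1 muscles (7.23 to 9.03 CPM) by a gap of 0.798 of the range. On the linear scale the gap was 0.702 of the range, under the limit of 0.71. The other 3 genes given by identifier were not marked on either scale.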

How the results depend on the processing

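The number of DEGs (24, with 9 higher in B1 and 15 higher in B3) depended on the processing. It was 174 (109 and 65) with DESeq2's Wald test, 394 (235 and 159) with no filter on low counts, 91 (40 and 51) in the fit of only the 7 libraries, and 14 (4 higher in B1) where every library had to reach 10 counts. Leaving out 1 library gave 3 to 95 DEGs, 0 to 40 higher in B1 and 3 to 55 higher in B3. It was 3 without the extensor digitorum longus and 9 without the extensor carpi radialis, which leave 1 extensor that is assumed to vary like the other groups, and there 0 genes were higher in B1, with 1160 and 976 genes at an unadjusted p under 0.05. It was 7 without the semitendinosus, 10 without the gluteus superficialis, and 95 and 94 without the omohyoideus or the extensor digitorum lateralis, the muscles of B2. In every one of these leave-one-out fits the 24 genes kept their sign. The size factors of DESeq2 (24), a robust fit (18) and all 18 libraries (28) moved the number by less than 1.5 times, and 14 of the 28 genes were among the 24. In the robust fit ENSECAG00000016631, ENSECAG00000007161 and ENSECAG00000013267 lost their call, with a log2FC of 5.52, 4.64 and -7.33 as in the main fit. ENSECAG00000016631 and ENSECAG00000007161 lost it with all 18 libraries too. The causes were not tested. With plain library totals, 432 genes had both extensors above B1 in place of 1758, and 182 had them on opposite sides in place of 295. ENSECAG00000016631 was a DEG in 4 of 9 leave-one-out fits, ENSECAG00000007161 in 3, ENSECAG00000013267 in 6 and ENSECAG00000006487 in 8, all with their sign kept. The medians of the gene lists were not run, since symbols were missing. No paired analysis was possible because the muscles carry no shared replicate label.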
